A study of Mus musculus with 4 samples.

Results

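The genes described here encode 9 transcription factors and nuclear receptors of the hepatocyte: Hnf4a, Cebpa, Nr5a2, Foxa1, Foxa2, Foxa3, Onecut1, Nr1i2 and Nr1i3. They were taken by symbol, as a set put together with earlier results of these data known, and all 9 were found among the 24346 genes listed in each library. RNA sequencing was performed on liver of wild type male C57BL/6 mice, young adults, that had eaten the NASH diet for 3 weeks. That diet is rich in fat, cholesterol and sucrose and holds a bile salt. The control group (n = 2) received it alone, labelled NASH diet, and the 7KC group (n = 2), labelled NASH+7-ketocholesterol diet, received it with 7-ketocholesterol (7KC), an oxidized form of cholesterol. All 4 libraries therefore came from animals on the steatohepatitis diet, and livers from ordinary chow were not analysed here. The labels do not say whether the replicates are separate animals, so p-values measure only the spread between these samples.

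Hepatocyte identity is held by a small network of DNA-binding proteins that switch on one another and share targets. Hepatocyte nuclear factor 4 alpha (HNF4A, gene Hnf4a) and C/EBP-alpha (gene Cebpa) drive genes for plasma proteins and for metabolism, and FOXA proteins open chromatin for them. Liver receptor homolog 1 (LRH-1, gene Nr5a2) acts on bile acid and cholesterol genes, HNF6 (gene Onecut1) on glucose metabolism and on other members of the network, and PXR (gene Nr1i2) and CAR (gene Nr1i3) sense drugs and bile acids.

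The comparison asked whether adding 7KC to the NASH diet went with other levels of these genes. None of the 9 passed the threshold. On the deposited scale Hnf4a, Cebpa, Nr5a2 and Nr1i2 were lower in both 7KC libraries than in both control libraries. The same held for 27.4% of all genes tested. The 7KC means of these members lay between 16% and 27.5% below the control means. The direction of each of these fitted changes turned when libraries were set to the same level of hepatocyte markers. Onecut1 differed 5.86-fold between the control replicates and 11.5-fold between the 7KC replicates, so that it varied far more within the groups than between them. Foxa2 and Foxa1 were also low in 7KC replicate 2 and high in 7KC replicate 1.

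Expression is given as FPKM, which scales a gene's fragments by exon length and by the library's mapped total, so levels can be set beside each other between genes. Depth, estimated from the steps between low values, was 13640000 to 16980000 mapped reads a library, and FPKM summed to 685028 and 671235 in the control libraries and to 619828 and 557138 in the 7KC libraries. At this depth the lowest value of a member rested on at least 79 reads, in Foxa2 with its shortest coding transcript, where counting error amounts to a coefficient of variation of 11.3%. The tissue label was checked with marker lists. All 20 hepatocyte markers were listed, and they summed to 78090 and 89253 FPKM in the control libraries and to 49288 and 65050 FPKM in the 7KC libraries. Macrophage markers (17 genes) summed to 1025 and 1317 FPKM in the control and 2046 and 3113 FPKM in the 7KC libraries, and T and NK cell markers (15 listed) to 21.3 and 31.0 against 60.9 and 73.8 FPKM. Cholangiocyte markers (10 genes) summed to 72.3 and 104 FPKM against 180.1 and 382 FPKM. Spp1 alone made up 54.1 and 85.6 against 165 and 363 FPKM of these, and the rest of the sums overlapped between the groups. Neutrophil markers (6 listed) summed to 18.6 and 34.1 FPKM in the control and 39.8 and 42.9 FPKM in the 7KC libraries. This sum was higher in both 7KC libraries. Endothelial markers (8 genes, 115 to 165 FPKM), stellate and fibroblast markers (10 genes, 175 to 238 FPKM) and B cell markers (6 genes, 3.16 to 8.66 FPKM) overlapped between the groups. Of 7 exocrine pancreas markers, 4 (Prss1, Cpa1, Pnlip and Amy2a5) were listed at 0 in every library. The part of these marker differences in the results was not tested. In whole liver, fewer hepatocytes and less RNA of a gene per hepatocyte cannot be told apart.

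**Figure D1:**
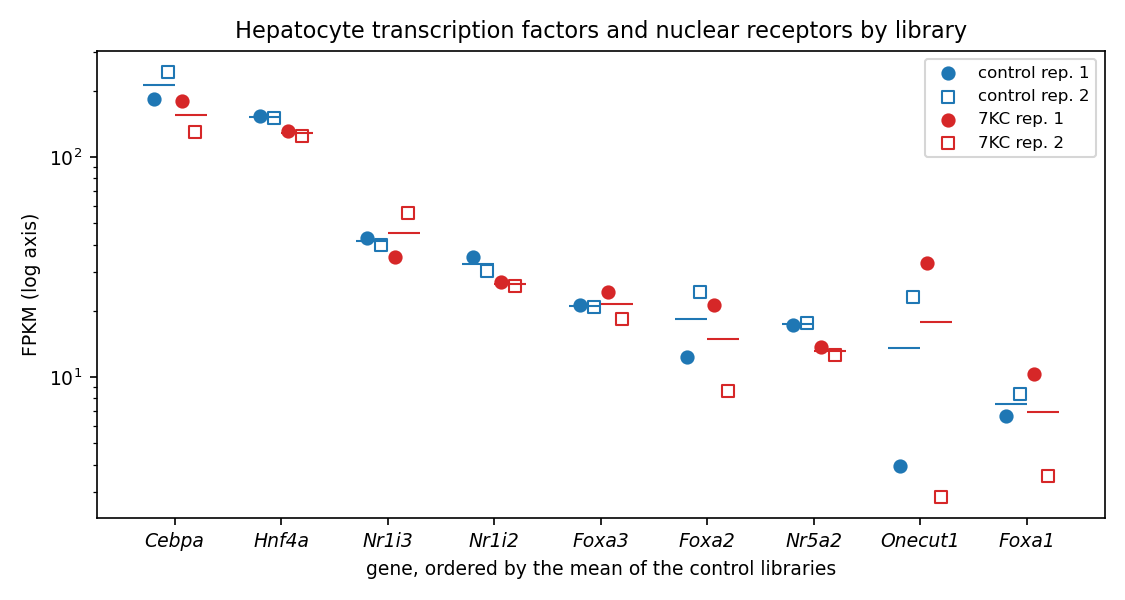
FPKM of the 9 genes on a log axis in each library, with control in blue, 7KC in red, filled circles for replicate 1, open squares for replicate 2 and bars for the group means. Hnf4a lies at 125 FPKM or more and Cebpa at 130.3 FPKM or more in every library, and Onecut1 spans 2.86 to 32.9 FPKM.

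The genes fell into a wide range of levels. Cebpa was the most abundant in every library, Hnf4a came next and Nr1i3 was in the third place, and Cebpa and Hnf4a together made up 70.6% to 70.8% of the summed FPKM of the 9 genes in the control libraries and 65.3% to 66.7% in the 7KC libraries. In the control group Cebpa, Hnf4a, Nr1i3, Nr1i2 and Foxa3 followed each other with no overlap of neighbouring libraries. Among Foxa3, Foxa2, Nr5a2, Onecut1 and Foxa1 each neighbour overlapped the next. Foxa3 still lay above Nr5a2, and Nr5a2 above Foxa1, with no overlap of the control libraries. In the 7KC group Cebpa and Hnf4a overlapped, and Hnf4a, Nr1i3, Nr1i2 and Foxa3 were each apart from the next. Foxa3, Onecut1, Foxa2 and Nr5a2 overlapped in turn, and Nr5a2 was apart from Foxa1. Otherwise only neighbours by group mean were compared, and in 7KC replicate 1 Onecut1 (32.9 FPKM) lay above Nr1i2 (27.1 FPKM).

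The upstream DNA of 4 members is shown because the values below turn on them: Onecut1 for its spread, Foxa2 for moving beside it, and Hnf4a and Nr5a2 for lying lower in both 7KC libraries. Sequences are RefSeq windows of build GRCm38.p6, which is the same assembly as mm10, up to 250 bases before the most upstream start and ending before the annotated gene, written 5′ to 3′ on the strand of the gene. Capitals mark matches to a motif, on either strand: the Onecut motif ATTGAT or ATCGAT, the FOXA motif TGTTTAC or TGTTTGC, the HNF4 motif CAAAGTCCA, the HNF1 motif GTTAAT with any base and then ATT, the C/EBP motif TTNNGCAA and the LRH-1 motif CAAGGTCA or CAAGGCCA. No match in these 4 windows overlapped another.
Foxa2, chr2:148046970-148047219, minus strand: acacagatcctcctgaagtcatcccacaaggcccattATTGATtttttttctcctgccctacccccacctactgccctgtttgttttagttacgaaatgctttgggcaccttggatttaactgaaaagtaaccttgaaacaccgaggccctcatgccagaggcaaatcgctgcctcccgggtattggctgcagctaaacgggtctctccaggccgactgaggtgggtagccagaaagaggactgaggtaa
Hnf4a, chr2:163506607-163506807, plus strand: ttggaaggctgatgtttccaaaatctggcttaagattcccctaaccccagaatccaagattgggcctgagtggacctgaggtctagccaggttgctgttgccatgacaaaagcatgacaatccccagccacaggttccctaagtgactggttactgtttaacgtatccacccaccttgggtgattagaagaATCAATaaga
Nr5a2, chr1:136960449-136960698, minus strand: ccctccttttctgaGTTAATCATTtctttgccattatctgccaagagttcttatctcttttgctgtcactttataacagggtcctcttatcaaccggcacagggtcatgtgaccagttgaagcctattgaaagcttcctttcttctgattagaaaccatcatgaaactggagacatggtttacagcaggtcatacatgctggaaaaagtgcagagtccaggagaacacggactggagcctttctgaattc
Onecut1, chr9:74861671-74861920, plus strand: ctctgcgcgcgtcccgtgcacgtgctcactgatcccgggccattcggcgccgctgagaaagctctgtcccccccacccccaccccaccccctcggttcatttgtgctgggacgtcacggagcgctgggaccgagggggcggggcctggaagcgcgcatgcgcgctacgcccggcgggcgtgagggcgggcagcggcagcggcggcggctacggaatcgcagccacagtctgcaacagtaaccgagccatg

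The Foxa2 window held the Onecut motif ATTGAT 213 to 208 bases before the start. The Hnf4a window, of the most upstream start, held it on the other strand, read as ATCAAT, 59 to 54 bases before the RefSeq start. The window of a second, downstream Hnf4a start (chr2:163546905-163547154, not shown) held none of the 6 motifs. Which start was used in these livers was not tested. The Nr5a2 window held the HNF1 motif 236 to 227 bases before the start, and the Onecut1 window, 71.6% G and C, held none of the 6 motifs. RefSeq gave 13 windows of 250 bases for the 9 genes. An Onecut motif was in 2 of the 13, against 7.4% of all 32851 promoter windows, a FOXA motif in 2 (Foxa1 and Nr1i2, against 7.29%), an HNF1 motif in 1 (against 0.371%) and a C/EBP motif in 1 (a second start of Nr5a2, against 9.56%). The HNF4 and LRH-1 motifs, in 0.384% and 3.28% of all windows, were in none. A match of letters is a description and says nothing of binding in these livers.

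Hnf4a (ENSMUSG00000017950.16, mm10 chromosome 2, 163506808 to 163572910, plus strand) encodes a nuclear receptor on which many hepatocyte genes depend. It was at 154 and 150.4 FPKM in control replicates 1 and 2 and at 131 and 125 FPKM in 7KC replicates 1 and 2. The groups did not overlap, and the replicates were close to each other, with SDs of 2.81 FPKM around 152 in the control group and 4.04 around 128 in the 7KC group (n = 2 each). The fitted log2 change was -0.25 (SE 0.11, 95% interval -0.53 to 0.03, limma adjusted p 0.321). An antisense gene, Hnf4aos, lies across the locus but shares 0 annotated exon bases with Hnf4a, and it was at 0.806 to 3.04 FPKM.

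Cebpa (ENSMUSG00000034957.10, chromosome 7, 35119293 to 35121928, plus strand) encodes a basic leucine zipper factor of hepatocyte metabolism. Its FPKM was 183 and 244 in the control replicates and 179 and 130.3 in the 7KC replicates. The groups did not overlap, but the gap between control replicate 1 and 7KC replicate 1 was small beside the spread within either group (SD 42.6 around 213 and 34.5 around 155 FPKM, n = 2 each). Its fitted log2 change of -0.47 (SE 0.22, 95% interval -1.02 to 0.09, limma adjusted p 0.342) was the lowest of the 9.

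Nr5a2 (ENSMUSG00000026398.14, chromosome 1, 136842571 to 136960448, minus strand) encodes LRH-1, a receptor that acts on Cyp8b1 and other sterol genes. It measured 17.1 and 17.6 FPKM in the control replicates against 13.7 and 12.6 FPKM in the 7KC replicates. The groups were apart by more than the spread within them (SD 0.345 and 0.735 FPKM, n = 2 each), and the log2 change was -0.39 (SE 0.11, 95% interval -0.67 to -0.11). Nr5a2 was the 1 member of 9 with an unadjusted limma p under 0.05, 0.0147, where 5.81% of all genes tested were lower at that level and 12% higher, and its adjusted p was 0.173.

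Nr1i2 (ENSMUSG00000022809.4, chromosome 16, 38248323 to 38294824, minus strand), the gene of the xenobiotic receptor PXR, measured 35.0 and 30.4 FPKM in the control replicates against 27.1 and 25.9 FPKM in the 7KC replicates. Again the groups did not overlap, with a log2 change of -0.30 (SE 0.12, 95% interval -0.60 to 0.01, limma adjusted p 0.291).

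Thus 0 of 9 members passed the limma threshold of an adjusted p under 0.05, which 62 of 12299 genes tested passed (0.504%), 59 of them higher (0.48%) and 3 lower (0.0244%). All 9 members entered the test. In 4 of the 9 both 7KC libraries lay below both control libraries, where 27.4% of all genes did, and in 0 of the 9 both lay above, where 25.1% of all genes did (52.5% in either direction). With 9 genes, 4 is a small count to set beside these shares. The median log2 change was -0.27 over the 9 genes and -0.03 over all genes tested. Without control replicate 2 it was -0.12 and without 7KC replicate 1 it was -0.45, and without control replicate 1 it was -0.41. An exact permutation test of 1 gene cannot reach 0.05 in this design, since 2 libraries a group give 3 splits and a smallest two-sided p of 0.333.

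**Figure D2:**
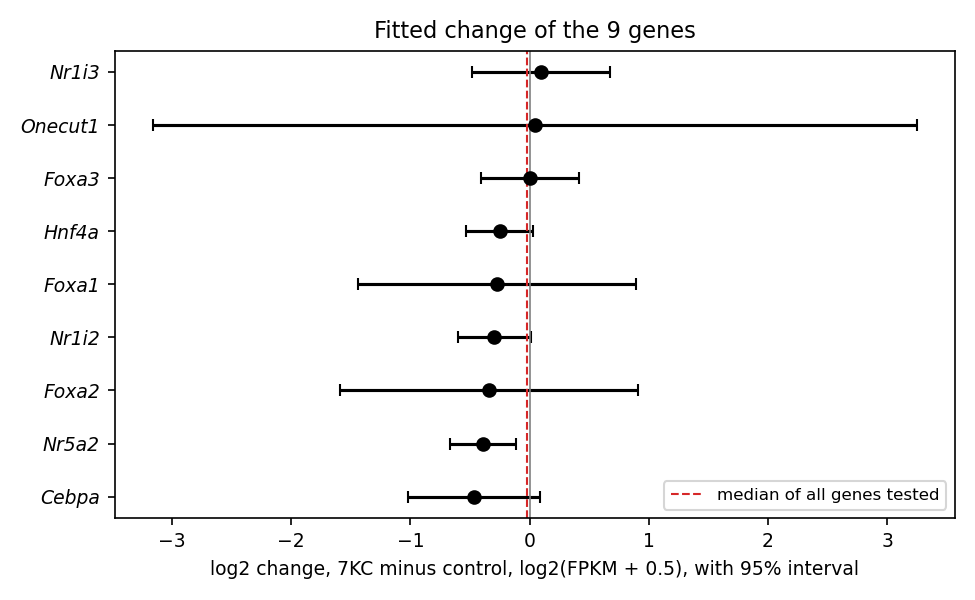
Fitted log2 change of each gene, 7KC minus control, on the log2(FPKM + 0.5) scale as deposited, with its 95% interval from limma as bars and the median of all genes tested (-0.03) as a dashed line. The interval of Nr5a2 lies below 0, those of the other 8 genes include it, and that of Onecut1 runs from -3.16 to 3.25. Under hepatocyte marker scaling all 9 changes lie above 0, and the median of all genes lies at 0.42.

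These directions depend on what the libraries are set to. The sums of hepatocyte markers and of macrophage, T and NK cell and neutrophil markers differed between the groups. The part of cell makeup in these directions was not tested. Of the hepatocyte markers, 9 are also on the list of FOXA, C/EBP-alpha and HNF6 targets given below. As deposited, or with libraries scaled by the median ratio, quantile normalized or set to the same sum, Hnf4a, Cebpa, Nr5a2, Nr1i2, Foxa1 and Foxa2 stayed below 0, and with libraries set to the same level of hepatocyte markers all 9 members were above 0. Setting libraries to the same sum moved the median of all genes to 0.16, and setting them to the 20 hepatocyte markers moved it to 0.42. Relative to the median of all genes the same 6 members lay below it and the same 3 (Foxa3, Onecut1 and Nr1i3) above it under all 5 scalings. Per hepatocyte marker, Hnf4a was at 128 and 126 in the control libraries and at 139 and 165 in the 7KC libraries, on an FPKM scale divided by the marker factor, and no longer lay lower. On that scale Cebpa was at 152 and 204 against 190 and 172, Nr5a2 at 14.2 and 14.8 against 14.5 and 16.6, and Nr1i2 at 29.0 and 25.4 against 28.7 and 34.1, with the groups overlapping in each. Hnf4a, Foxa3 and Nr1i3 were the members whose 7KC libraries both lay above the control libraries on it, and none passed the threshold (limma adjusted p 0.231, 0.0662 and 0.0794).

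**Figure D3:**
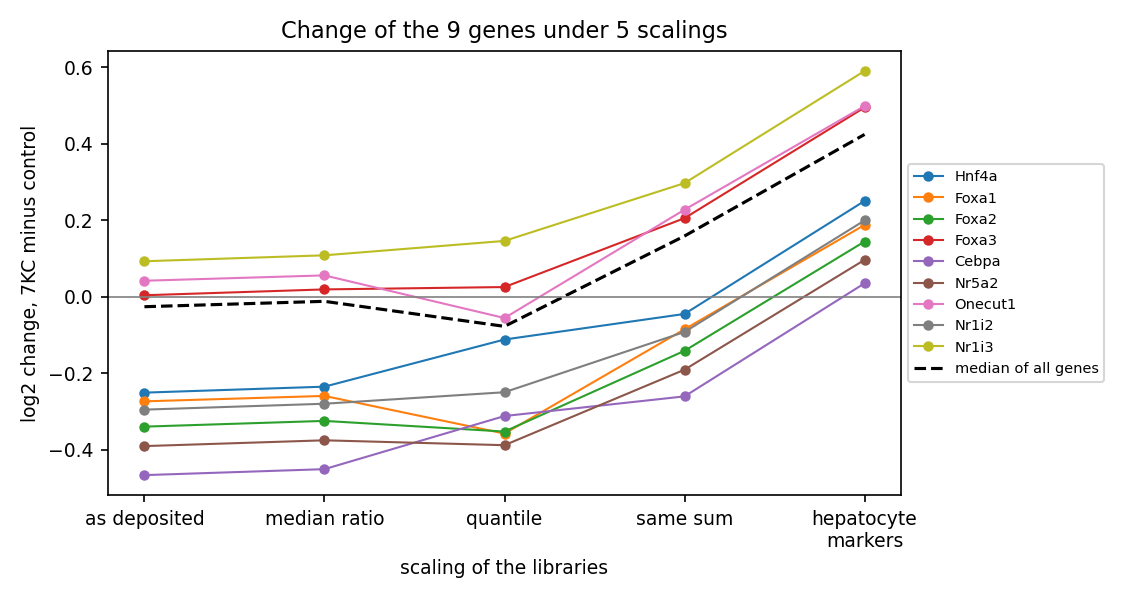
Log2 change, 7KC minus control, of the 9 genes (coloured lines) and the median of all genes tested (dashed line) under 5 scalings of the libraries. Hnf4a runs from -0.25 as deposited to 0.25 under hepatocyte marker scaling, and the median of all genes from -0.03 to 0.42.

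The FOXA proteins are forkhead pioneer factors that bind closed chromatin. Foxa1 (ENSMUSG00000035451.7, chromosome 12, 57540628 to 57546916, minus strand) measured 6.66 and 8.38 FPKM in the control replicates and 10.3 and 3.53 FPKM in the 7KC replicates. Foxa2 (ENSMUSG00000037025.11, chromosome 2, 148042877 to 148046969, minus strand) measured 12.3 and 24.3 FPKM in the control and 21.2 and 8.63 FPKM in the 7KC replicates. For both genes 7KC replicate 2 was the lowest library, and 7KC replicate 1 lay above both control replicates in Foxa1 and between them in Foxa2. Foxa3 (ENSMUSG00000040891.6, chromosome 7, 19013284 to 19023538, minus strand) was steadier, at 21.4 and 20.9 FPKM in the control and 24.4 and 18.3 FPKM in the 7KC libraries. Log2 changes were -0.27 (SE 0.46) for Foxa1, -0.34 (SE 0.49) for Foxa2 and 0.00 (95% interval -0.41 to 0.41) for Foxa3, with limma adjusted p-values of 0.792, 0.754 and 0.99. Summed over the family, FPKM was 40.3 and 53.5 in the control and 55.9 and 30.5 in the 7KC libraries. Foxa3 made up 53% and 39% of that sum in the control and 43.7% and 60.1% in the 7KC libraries, so the makeup of the family differed as much within groups as between them.

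Onecut1 (ENSMUSG00000043013.10, chromosome 9, 74861921 to 74891781, plus strand) encodes HNF6, a cut-homeodomain factor. It was at 3.96 and 23.2 FPKM in control replicates 1 and 2 and at 32.9 and 2.86 FPKM in 7KC replicates 1 and 2. Each group thus held a high and a low library. Only 1 coding transcript is annotated, and the values correspond to about 253, 1204, 1684 and 148 reads, so counting error is small beside the difference. The log2 change between the groups was 0.04 with an SE of 1.27 and a 95% interval of -3.16 to 3.25 (limma adjusted p 0.987), which leaves a difference of several fold in either direction undetectable with these libraries. Leaving out a single library moved the change from -1.61 (without 7KC replicate 1) to 1.70 (without 7KC replicate 2). The residual SD of Onecut1, 2.05 on the log2 scale, was the 22nd largest of 12299 genes tested, and those of Foxa2 (0.78) and Foxa1 (0.73) were the 144th and 175th. Those of Hnf4a (0.04) and Nr5a2 (0.06) lay at percentiles 5.76 and 13.4 of all genes.

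Onecut1 was high in control replicate 2 and 7KC replicate 1. The pair of libraries was picked by Onecut1, and in 2 of the other 8 members, Foxa2 and Foxa1, both lay above the other two, where 11.7% of all genes tested did. Genes with the most similar profile to Onecut1 over the 4 libraries, named after the values were seen, were Serpina4-ps1, Cish and Foxq1, at distances of 0.47, 0.54 and 0.62 on the centred log2 scale. Serpina4-ps1, a pseudogene, was at 6.76 and 29.5 FPKM in the control and 42.2 and 5.75 FPKM in the 7KC libraries. Cish, which encodes a feedback inhibitor of cytokine receptors switched on by STAT5, was at 6.66 and 31.7 FPKM in the control and 31.6 and 4.03 FPKM in the 7KC libraries. Foxq1, a forkhead gene, was at 5.59 and 42.9 FPKM against 34.5 and 5.13 FPKM. In each of these the pair of high libraries was the same as for Onecut1.

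Growth hormone acts on the hepatocyte through STAT5 in pulses, and Onecut1, Cish and Socs2 are known as genes it induces and Bcl6 as one it represses. Socs2, a further feedback inhibitor and the gene nearest in profile to Foxa1 (distance 0.03), was at 14.1 and 17.6 FPKM in the control and 20.9 and 7.58 FPKM in the 7KC libraries. Bcl6, a transcriptional repressor, ran the other way, at 30.1 and 10.5 FPKM in the control and 9.27 and 27.7 FPKM in the 7KC libraries. Among factors on the lists used here, Hhex, a homeobox gene of liver development, was at 27.4 and 101 FPKM in the control and 107 and 23.0 FPKM in the 7KC libraries. Cish and Hhex were thus high in the libraries where Onecut1 was high, and Bcl6 was low in them. Socs2 was also higher in that pair, but its control replicates lay closer to each other than those of Onecut1. The part of these genes in the spread of Onecut1 was not tested. Clock genes were mixed. Dbp did not follow that order, at 77.3 and 69.8 FPKM in the control and 67.3 and 49.5 FPKM in the 7KC libraries, and neither did Tef, Nr1d1 and Nr1d2. Nfil3, a clock-controlled repressor, was at 12.7 and 4.52 FPKM in the control and 8.68 and 8.98 FPKM in the 7KC libraries. It was low in control replicate 2, as Bcl6 was, but its 7KC replicates were close to each other. All of these genes were named after their values were seen.

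**Figure D4:**
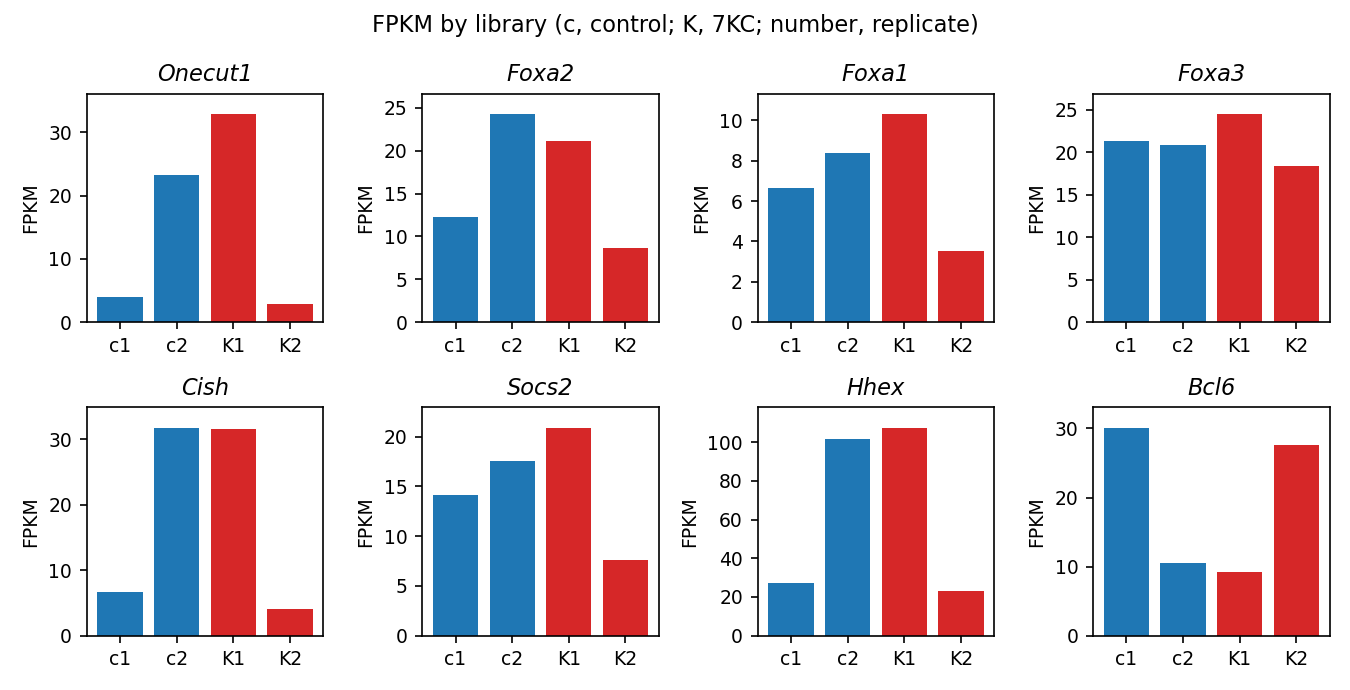
FPKM in each library (blue, control; red, 7KC) as bars from 0 for Onecut1, Foxa2, Foxa1, Foxa3, Cish, Socs2, Hhex and Bcl6. Control replicate 2 and 7KC replicate 1 carry the high bars of Onecut1 (23.2 and 32.9 FPKM) and Cish (31.7 and 31.6 FPKM) and the low bars of Bcl6 (10.5 and 9.27 FPKM).

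Nr1i3 (ENSMUSG00000005677.14, chromosome 1, 171213970 to 171220701, plus strand), the gene of the xenobiotic receptor CAR, was at 43.0 and 39.7 FPKM in the control and 35.1 and 55.4 FPKM in the 7KC libraries. The 7KC replicates held the lowest and the highest value of the 4. Its log2 change of 0.09 (SE 0.23, 95% interval -0.48 to 0.67, limma adjusted p 0.866) was the highest of the 9 and became -0.23 without 7KC replicate 2. The ratio of Nr1i3 to Nr1i2 in FPKM was 1.23, 1.31 and 1.29 in control replicates 1 and 2 and 7KC replicate 1, and 2.14 in 7KC replicate 2. Nr1i3 lies on the opposite strand to Tomm40l, a gene of the mitochondrial outer membrane, and 3304 of its 4414 annotated exon bases are also exon of Tomm40l. Tomm40l had its highest value in the same library, with 20.1 and 15.7 FPKM in the control and 16.4 and 25.5 FPKM in the 7KC libraries. The strand setting of the authors' counting is not given in the sources used here, so reads of these partners may not be told apart.

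By the rule set for named genes, those with the most similar profile over the 4 libraries were also taken for Hnf4a, Cebpa and Nr1i3. They were Psmd13, Mul1 and Dgcr2 for Hnf4a (distances 0.01 to 0.02 on the centred log2 scale), LOC102631757, 1810008I18Rik and Pdcd4 for Cebpa (0.05 to 0.07), and Mtmr12, 1700028E10Rik and Esam for Nr1i3 (0.03 to 0.05). Over only 4 libraries such nearness is easily had.

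Other regulators of the hepatocyte were read from wider lists, beside the -0.03 median of all genes and the 5.81% of all genes that were lower, and 12% higher, at an unadjusted limma p under 0.05. Of all genes tested, 27.4% lay lower without overlap of the libraries and 25.1% higher. These shares apply to the target lists further below as well. Of 34 other liver transcription factors, all tested, 0 passed the threshold, 5 were lower and 0 higher at an unadjusted limma p under 0.05, 28 were below 0 and 6 above, 11 lay lower without overlap of the libraries and 3 higher, and the median log2 change was -0.13. With libraries at the same sum 14 were below 0 and the median was 0.05, but the median of all genes was then 0.16. Below the median of all genes lay 27 of the 34 as deposited and 27 with libraries at the same sum. Its smallest p-values lay with Srebf1, the lipogenic sterol-responsive factor, at 87.3 ± 18.7 FPKM in the control and 53.5 ± 1.42 FPKM in the 7KC group (mean ± SD, n = 2 each, log2 change -0.69, limma adjusted p 0.137), and Foxo1, the insulin-controlled factor of gluconeogenesis, at 19.1 ± 1.34 and 14.6 ± 0.437 FPKM (-0.38, 0.19). On the higher side they lay with Srebf2, its sterol synthesis relative, at 6.83 ± 0.515 and 7.80 ± 0.359 FPKM (0.18, limma adjusted p 0.479), and the biliary factor Sox9, at 0.957 ± 0.0623 and 1.36 ± 0.434 FPKM (0.33, 0.481).

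Of 38 other nuclear receptors 31 were tested, 0 passed, 5 were lower and 1 higher at the unadjusted limma level, 19 were below 0 and 12 above, and the median was -0.04 (0.11 with libraries at the same sum, where 8 were below 0). Libraries did not overlap in 11 that were lower and 5 that were higher. Vdr, the vitamin D receptor, measured 0.308 and 0.104 FPKM in the control replicates and 1.26 and 0.938 FPKM in the 7KC replicates, a log2 difference of 1.19 (limma adjusted p 0.104). Esr1, the estrogen receptor, measured 3.27 and 3.32 against 3.92 and 4.22 FPKM (0.27, limma adjusted p 0.345). The clock receptor Nr1d2 was at 28.9 ± 2.24 and 21.6 ± 2.61 FPKM (mean ± SD, n = 2 each, -0.41, limma adjusted p 0.218), and the orphan receptor Nr6a1 at 1.87 ± 0.0248 and 1.20 ± 0.0987 FPKM (-0.48, 0.22).

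Coregulators bind these receptors to switch transcription on or off. Of 16, all tested, 0 passed, 2 were lower and 0 higher at the unadjusted limma level, 10 were below 0 and 6 above (5 of 16 below with libraries at the same sum), 5 lay lower without overlap and 2 higher, and the median was -0.02 (0.16 with libraries at the same sum). Ppargc1b, a coactivator of mitochondrial and lipid genes, was at 3.85 ± 0.0174 FPKM in the control and 1.94 ± 0.242 FPKM in the 7KC group (mean ± SD, n = 2 each), a log2 difference of -0.84 (limma adjusted p 0.0732). The receptor chaperone gene Fkbp4 was at 86.2 ± 16.5 and 60.3 ± 4.15 FPKM (-0.50, limma adjusted p 0.219). Ncoa3, a coactivator, was at 4.67 ± 0.0274 and 5.85 ± 0.514 FPKM (0.29, limma adjusted p 0.311).

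Target genes of the members were examined next. Of 33 CAR and PXR targets 29 were tested and 0 passed (Cyp2b13, Cyp3a41a and Sult2a1 were listed at 0 in every library), with 17 below 0, 12 above and a median of -0.09 (12 below 0 with libraries at the same sum). At the unadjusted limma level 6 were lower and 3 higher, and libraries did not overlap in 12 that were lower and 6 that were higher. Cyp3a11, the main PXR-induced cytochrome, was at 2557 and 2194 FPKM in the control and 1875 and 1885 FPKM in the 7KC libraries, and Cyp2b10, the main CAR-induced one, at 10.8 and 4.23 against 5.79 and 8.17 FPKM. Both were chosen after their values were seen. Slco1a4, an uptake transporter, was at 19.5 ± 2.93 FPKM in the control and 10.9 ± 0.185 FPKM in the 7KC group (mean ± SD, n = 2 each, log2 change -0.80, limma adjusted p 0.0742), and Cyp3a25 at 324 ± 7.06 and 242 ± 5.91 FPKM (-0.43, 0.174). Gsta1, a glutathione transferase with a near-identical relative whose reads may be exchanged, was at 2.14 ± 1.15 and 7.98 ± 0.277 FPKM (1.75, limma adjusted p 0.0742). Alas1, the first enzyme of heme synthesis, was at 177 ± 0.0544 and 271 ± 42.7 FPKM (0.60, limma adjusted p 0.141).

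The targets of HNF4A and LRH-1 lay lower as a list on the deposited scale, with 28 of 31 below 0 (24 with libraries at the same sum, but 8 with libraries at the same level of hepatocyte markers), and 0 passed the threshold. At the unadjusted limma level 8 were lower and 0 higher. In 19 of the 31 both 7KC libraries lay below both control libraries and in 0 above, against 27.4% and 25.1% of all genes tested. The median log2 change was -0.35. Below the median of all genes lay 28 of the 31 as deposited, at the same sum and at the same hepatocyte marker level. After quantile normalization 24 did. G6pc, the last enzyme of glucose release, was at 348 and 310 FPKM in the control and 128 and 197 FPKM in the 7KC libraries, or -1.05 on the log2 scale (SE 0.23, limma adjusted p 0.109). Abcg5, a sterol exporter of bile, was at 192 and 218 against 136 and 111 FPKM, with -0.74 (SE 0.15, limma adjusted p 0.101). Ces1g and Apoc2 had the smallest p on the higher side, at 0.28 and 0.30 on the log2 scale and limma adjusted p-values of 0.588 and 0.786. Cyp8b1, the bile acid 12-alpha-hydroxylase and a target of both receptors, was named after its values were seen: it was at 4.37 and 52.5 FPKM in the control and 16.7 and 3.02 FPKM in the 7KC libraries, high in the libraries where Onecut1 was high.

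Of 26 targets of FOXA, C/EBP-alpha and HNF6, 13 of which are also on another list and 9 among the hepatocyte markers, 25 were tested. On the deposited scale 22 lay below 0 (17 with libraries at the same sum, 12 at the same level of hepatocyte markers), and 0 passed. Below the median of all genes lay 22 of the 25 on each of these scales, and 18 after quantile normalization. As deposited, 9 were lower and 1 higher at the unadjusted limma level. Libraries did not overlap in 15 that were lower and 1 that was higher, and the median log2 change was -0.44. Igfbp1, a binding protein of insulin-like growth factors, was at 226 ± 29.3 FPKM in the control and 132 ± 31.1 FPKM in the 7KC group (mean ± SD, n = 2 each, log2 change -0.79, limma adjusted p 0.147), and G6pc, given above, is on this list too. Cdkn1a, a cell cycle inhibitor, was at 3.46 ± 1.77 and 9.55 ± 0.259 FPKM (1.42, limma adjusted p 0.112), and Pdk4, a brake on pyruvate oxidation, at 1.28 ± 0.589 and 1.77 ± 0.763 FPKM (0.35, 0.627). For comparison the 20 hepatocyte markers had a median of -0.52, with 18 below 0 and 15 lower without overlap. The target lists were written from general knowledge, and their change beside that of the hepatocyte markers was not tested.

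**Figure D5:**
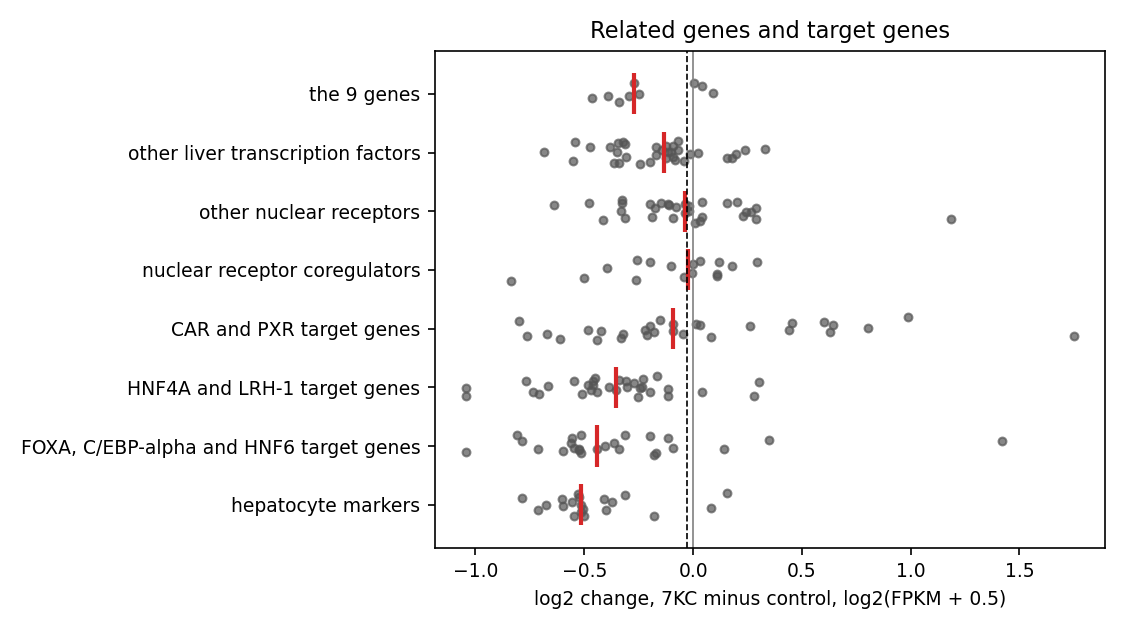
Log2 change, 7KC minus control on the log2(FPKM + 0.5) scale as deposited, of each tested gene (points) of the 9 genes, the related lists and the hepatocyte markers, with list medians as red bars and the median of all genes as a dashed line. Medians run from -0.02 for the coregulators to -0.52 for the hepatocyte markers. Under hepatocyte marker scaling the medians of the target lists lie above 0 but below the median of all genes, which is then 0.42.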

How the data were processed

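RNA sequencing of liver was analysed in 4 libraries, grouped by the diet in the sample labels. FPKM values were deposited by the authors, 1 per gene symbol and library. Per the labels, libraries were made with a stranded messenger RNA kit. The study's methods name single-end reads mapped to mm10 with TopHat and Bowtie2, with FPKM from Cufflinks, and the submitters' processing notes list TopHat2 2.1.1, Bowtie2 2.2.8, SAMtools 0.1.18 and Cuffdiff 2.2.1. The annotation and the settings for strand and multi-mapped reads are not given in the sources used here. FPKM is not a count, so no count model was used.

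The 12299 genes whose mean over the 4 libraries reached 0.5 FPKM were compared as log2(FPKM + 0.5) with limma 3.58.1 in R 4.3.3 (lmFit, eBayes with trend, group as the only term, 2 residual and 3.27 prior degrees of freedom), two-sided, with Benjamini-Hochberg adjustment over all of them and a threshold of 0.05. Log2 changes understate those of low genes. The script was tested on simulated data. Depth was estimated as the number of reads at which low FPKM values of single-transcript genes, times the length in GENCODE release M21 less 200 bases, came nearest to whole reads. Within 0.1 of a whole read lay 69.9% to 71.6% of 564 to 627 values a library. Reads behind a value cover counting error only. The members and lists were chosen with earlier results of these data known. Named genes were the 9 members, of each other list the genes past the threshold and the 2 with the smallest p in each direction, and the 3 nearest profiles (Euclidean distance of centred log2 values) of Hnf4a and of the members with the highest and lowest change. A result for 1 gene that this rule takes is not reported here. Alternatives were other pseudocounts, filters, scalings and priors, the replicate number as a block, and leaving out each library. Same-numbered libraries of the groups did not deviate together (correlation across genes -0.14).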

Additional observations from a re-analysis of the deposited data

How the results depend on the processing

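None of the 9 genes passed the threshold under any alternative that was run. Against 59 genes higher and 3 lower over all genes, there were 111 higher with a pseudocount of 1 FPKM, 0 and 1 without a filter (16858 genes tested, 2634 with an unadjusted limma p under 0.05), 94 higher with median-ratio scaling, 402 and 7 with libraries at the same sum, 2511 and 12 at the same level of hepatocyte markers, and 39 and 1 without a trend in the prior. Leaving out a library gave 2 to 389 higher and 1 to 52 lower. The replicate block gave 0 and 0 calls (1851 genes with an unadjusted limma p under 0.05), and a block with the numbers crossed, chosen after seeing the data, gave 551 and 37. The numbers mark no shared animal or batch in the labels. The median log2 change of the 9 genes moved from -0.27 to -0.085 at the same sum and to 0.20 at the same level of hepatocyte markers, and leaving out a library gave -0.45 to -0.12. With hepatocyte marker scaling the direction turned for Hnf4a (0.25), Foxa1 (0.19), Foxa2 (0.14), Cebpa (0.035), Nr5a2 (0.10) and Nr1i2 (0.20), which follows from dividing by markers that were lower in the 7KC libraries. Quantile normalization turned Onecut1 (-0.056), and the cause was not tested. Leaving out a library turned Onecut1 (range -1.61 to 1.70), Foxa1 (-0.98 to 0.44), Foxa2 (-0.96 to 0.28), Foxa3 (-0.20 to 0.21) and Nr1i3 (-0.23 to 0.42). The ranges of Hnf4a (-0.28 to -0.22), Nr5a2 (-0.45 to -0.34), Nr1i2 (-0.40 to -0.19) and Cebpa (-0.69 to -0.24) lie below 0 by construction, since the libraries of the groups do not overlap in these genes. With 2 libraries a group, the 95% interval of the steadiest member, Hnf4a, ran from -0.53 to 0.03.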

Other observations

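Across all 12299 genes tested, 15 (0.122%) were at least 2 times higher in both control replicate 2 and 7KC replicate 1 than in the other libraries, and 13 (0.106%) were at least 2 times lower. Onecut1 is among the 15, with the transcription regulator Arid5b (8.33 and 21.3 FPKM in the control and 18.5 and 7.51 FPKM in the 7KC replicates), the stress kinase gene Plk3 (25.6 and 54.9 against 73.5 and 17.5 FPKM), Hhex, Foxq1, Cish and Cyp8b1. Among the 13 are Bcl6, the kinase gene Sik1 (14.9 and 2.68 against 5.80 and 13.2 FPKM) and the immediate early gene Fos (9.80 and 3.09 against 3.54 and 7.61 FPKM). These were chosen after their values were seen, from both sets together. Others in the sets lie near the filter or encode small RNAs, whose FPKM can stand for very few reads. Hnf4g, the close relative of Hnf4a, stayed under the filter, with 0.102 and 0.109 FPKM in the control replicates, 0.0365 FPKM in 7KC replicate 1 and a listed 0 in 7KC replicate 2.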
